A study of Homo sapiens with 9 samples.

Results

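Pericellular proteolysis was followed in HMEC-1 cells through 10 transcripts: the collagenase gene MMP1, its antisense neighbour WTAPP1, the metalloproteinase genes MMP2 and MMP14, the inhibitor genes TIMP1, TIMP2 and TIMP3, the plasminogen activator genes PLAU and PLAT, and the aminopeptidase gene ANPEP. They were picked by symbol from the 18293 genes present in both deposited count tables, and all 10 were among the 18284 genes tested. The choice was made with earlier results of these libraries known, above all the higher MMP1 and WTAPP1 counts with AMI-1. The values of the 10, and their calls at an adjusted p threshold, are therefore a description and no independent support. Their p-values are not printed. HMEC-1 is an immortalised line of human dermal microvascular endothelial cells, grown here in MCDB131 medium with 5.5 mM glucose. The groups were cells given AMI-1 at 100 µM for 16 h, cells given AMI-5 at 100 µM for 16 h, and control cells given the solvent DMSO for as long, with 3 libraries of poly-A RNA in each group. Both compounds are small-molecule inhibitors of protein arginine methyltransferases. All libraries came from this single line, and the labels do not say whether the libraries of a group were separate cultures, so the errors cover only the spread between these libraries.

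Cells remodel the matrix around them with a small set of secreted and membrane-bound proteases. MMP1 cleaves intact fibrillar collagen, and MMP2 degrades the unwound product and basement membrane collagen. MMP14, a membrane-anchored enzyme, activates the MMP2 zymogen at the cell surface together with TIMP2, while TIMP1, TIMP2 and TIMP3 inhibit the active enzymes. Urokinase (PLAU) and tissue plasminogen activator (PLAT) turn plasminogen into plasmin, which opens fibrin and also activates some metalloproteinase zymogens. Aminopeptidase N (ANPEP, CD13) trims peptides at the surface of endothelial and myeloid cells and is induced in vessels that form anew. In endothelium this system serves sprouting and vessel remodelling.

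The libraries held 14454113 to 24693020 counts. In the count column headers, libraries with the same replicate number share a prefix, whose meaning is not given. These libraries deviated together from their group means. Correlations across genes were 0.431 to 0.871 in 9 of 9 such pairs, against -0.804 to 0.204 for pairs with different numbers. Fold changes are therefore given from the fit of edgeR's quasi-likelihood test with the replicate number as a block, and "called" means a Benjamini-Hochberg adjusted p under 0.05 over all genes in that fit. Without the block the same test called 0 genes in any of the 3 comparisons. At an unadjusted p under 0.05 it then had 187 genes for AMI-1 and 485 for AMI-5 (each against control), and 478 for AMI-5 against AMI-1. Each of these is a smaller share of the 18284 genes tested than the threshold of 0.05. At an adjusted p under 0.05, DESeq2 without the block called 3, 20 and 36 in the same order. Of 12 endothelial markers 10 were tested, and PECAM1 and CLDN5 were not. Their summed level was 967.3 to 1258 normalised counts (CPM, counts scaled by each library's total times its TMM factor) with AMI-1, 739.1 to 1038 CPM with AMI-5 and 895.7 to 1318 CPM in control. Of 8 fibroblast and pericyte markers 7 were tested (not DCN), at sums of 3103 to 4139 CPM with AMI-1, 2453 to 3170 CPM with AMI-5 and 2997 to 4455 CPM in control, to which COL1A1 contributed most. Of 4 leukocyte markers 2 were tested, at 28.8 to 49.0 CPM over the 9 libraries, and of 4 epithelial markers 0 were: KRT14 was listed but did not pass the filter on low counts. In bulk RNA, fewer cells of a type and less RNA per cell cannot be told apart.

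AMI-1 against control showed a higher level of MMP1, WTAPP1 and ANPEP, and AMI-5 against control a lower level of ANPEP, MMP14, MMP2, PLAT and PLAU. In AMI-1 against control 3 of the 10 were called, all higher, where 0.41% of all genes were called and 0.23% were called higher. In AMI-5 against control 5 of the 10 were called, all lower, where 10.9% of all genes were called and 7.51% were called lower. In AMI-5 against AMI-1 6 of the 10 were called, all lower with AMI-5 (MMP1, WTAPP1, MMP2, MMP14, PLAT and ANPEP), where 5.1% of all genes were called and 3.48% were called lower. With a correction for transcript GC content 4, 6 and 6 of the 10 were called, where 3.4%, 13.6% and 11.8% of all genes were, and without the block 0 of the 10, where 0% of all genes were. These contrasts helped to choose the members, so nothing is read from the shares. With 1 library left out of the blocked fit, 2 of the 10 were called with AMI-1 when its replicate 1 or 3 or any control library was missing. With AMI-5, 2 of the 10 were called without its replicate 1 or without control replicate 1 or 3, and 3 without its replicate 2. In AMI-5 against AMI-1, 5 to 7 of the 10 were called in these fits. The median log2 fold change of the 10 was 0.07 with AMI-1 (7 above 0 and 3 below), -0.21 with AMI-5 (0 above and 10 below) and -0.29 for AMI-5 against AMI-1 (1 above and 9 below), beside medians of -0.0019, -0.0050 and -0.0063 over all genes tested. The 2 comparisons with control share their control libraries.

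**Figure D1:**
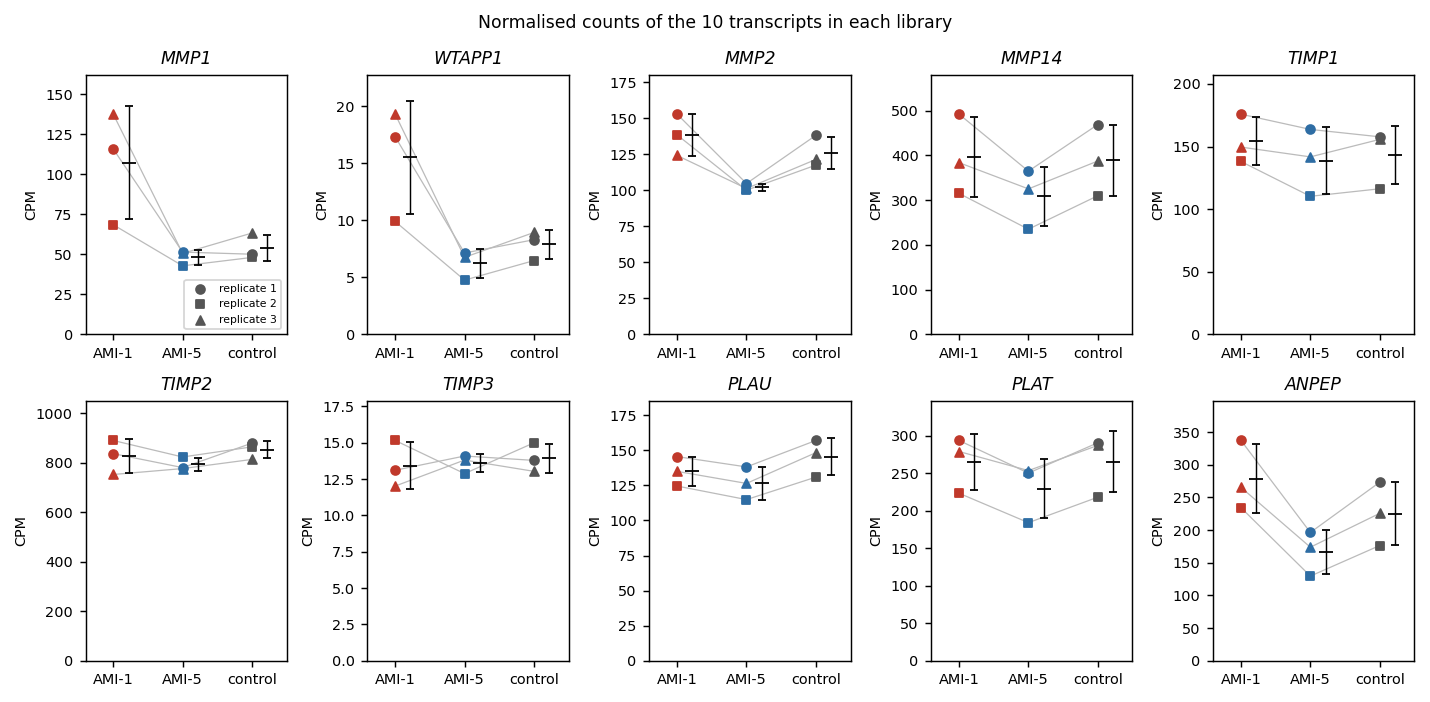
Each panel plots the CPM of 1 transcript (y axis from 0) in the AMI-1, AMI-5 and control libraries, with grey lines joining libraries of the same replicate number and black bars for the mean and SD (n = 3). MMP1 and WTAPP1 stand above control in each AMI-1 library, and the 3 AMI-5 libraries of ANPEP lie below the control library they are joined to.

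MMP1 (ENSG00000196611.4) had 115.9, 68.6 and 137.6 CPM in AMI-1 replicates 1, 2 and 3, 51.5, 42.9 and 50.6 CPM in AMI-5 replicates 1, 2 and 3, and 50.1, 48.1 and 63.4 CPM in control replicates 1, 2 and 3. The AMI-1 group did not overlap with either of the others, its replicate 2 lay nearest to them, and the AMI-5 and control groups overlapped. The means were 107.4 ± 35.3 CPM with AMI-1, 48.3 ± 4.75 CPM with AMI-5 and 53.9 ± 8.28 CPM in control (SD, n = 3 each). The log2 fold change was 0.96 ± 0.11 (SE, 95% interval 0.73 to 1.20, or 1.95-fold) for AMI-1 against control, built from pair differences of 1.21, 0.51 and 1.12. Only 1 of the 12762 genes with a mean of at least 5 CPM had a larger positive value in that contrast. MMP1 was chosen with this contrast known, so the rank is a description and no support. Against control, AMI-5 gave -0.16 ± 0.11 (-0.40 to 0.09), with pairs of 0.04, -0.17 and -0.32, and was not called. Against AMI-1, AMI-5 gave -1.12 ± 0.11 (-1.36 to -0.88). The call in AMI-1 against control ended without AMI-1 replicate 3, and with a correction for transcript GC content (0.94, 0.54 to 1.35), while the call in AMI-5 against AMI-1 held in 9 of 9 fits without a library and with that correction.

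WTAPP1 (ENSG00000255282.2), a transcribed processed pseudogene of the splicing regulator gene WTAP, followed MMP1. It had 17.3, 9.90 and 19.3 CPM in AMI-1 replicates 1, 2 and 3, 7.14, 4.76 and 6.76 CPM in AMI-5 replicates 1, 2 and 3, and 8.30, 6.47 and 8.94 CPM in control replicates 1, 2 and 3. Again the AMI-1 libraries stood apart and replicate 2 was the lowest in each group. The log2 fold change was 0.96 ± 0.11 (0.73 to 1.19) for AMI-1 against control, -0.35 ± 0.12 (-0.62 to -0.09, not called) for AMI-5 against control and -1.32 ± 0.11 (-1.55 to -1.08) for AMI-5 against AMI-1. The first and the last of these calls held in 9 of 9 fits without a library. With GC correction the AMI-5 value against control (-0.36) was called as well. WTAP itself averaged close to control, at -0.03 ± 0.06 with AMI-1 and -0.04 ± 0.06 with AMI-5.

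The gene pair lies on chromosome 11, where GENCODE 29 places MMP1 on the minus strand inside the span of WTAPP1, which is on the plus strand. Their exons share 150 bases, which is 7.61% of the 1970 exonic bases of MMP1 and 4.5% of the 3331 exonic bases of WTAPP1. The strand setting of the counting is not given in the sources used here, so reads of the 2 genes may not be separable, above all in those bases. The deposited counts gave 6.69, 6.93 and 7.13 MMP1 reads per WTAPP1 read in AMI-1 replicates 1, 2 and 3, 7.21, 9 and 7.49 in AMI-5 replicates 1, 2 and 3, and 6.04, 7.44 and 7.09 in control replicates 1, 2 and 3. The exact binomial 95% intervals ran from 4.99 to 7.36 for the lowest of these, in control replicate 1, and from 7.03 to 11.7 for the highest, in AMI-5 replicate 2. The AMI-5 ratios all lay above the AMI-1 ratios, with 7.21 as the lowest of AMI-5 and 7.13 as the highest of AMI-1, and each of these groups overlapped with control. Within each replicate number the AMI-5 library had the highest ratio, although the intervals of all 9 libraries overlapped. Of 7 further genes, 6 near the pair on chromosome 11 and WTAP, 0 were called in each of the 3 comparisons, and with GC correction 1 was called lower in AMI-5 against AMI-1.

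**Figure D2:**
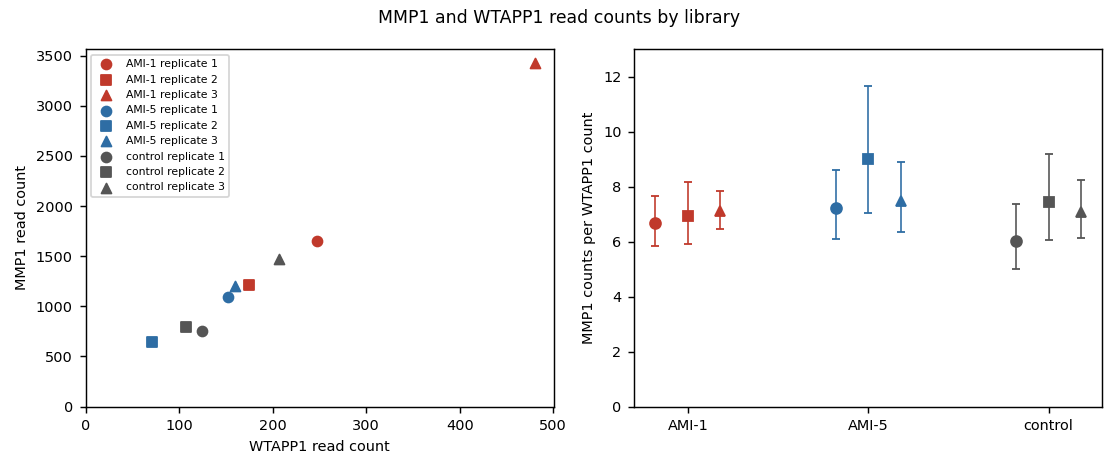
The left panel plots MMP1 read counts against WTAPP1 read counts in the 9 libraries, and the right panel plots MMP1 reads per WTAPP1 read, with exact binomial 95% intervals that cover counting error only. The ratio runs from 6.04 to 9, the AMI-5 libraries lie above the AMI-1 libraries, and both overlap with control.

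The gelatinase gene MMP2 and its activator gene MMP14 were both higher with AMI-1 than with AMI-5 in each pair. MMP2 (ENSG00000087245.8) had 152.9, 138.5 and 124.3 CPM in AMI-1 replicates 1, 2 and 3, 104.8, 100.2 and 101.3 CPM in AMI-5 replicates 1, 2 and 3, and 138.2, 117.6 and 121.5 CPM in control replicates 1, 2 and 3. The AMI-5 libraries lay below the 6 others and spread least, at 102.1 ± 2.41 CPM, against 138.6 ± 14.3 CPM with AMI-1 and 125.8 ± 11 CPM in control (SD, n = 3). The log2 fold change was 0.14 ± 0.06 (0.01 to 0.26, not called) with AMI-1, -0.30 ± 0.06 (-0.43 to -0.17) with AMI-5, and -0.44 ± 0.06 (-0.56 to -0.31) for AMI-5 against AMI-1. The AMI-5 call against control ended without AMI-5 replicate 1, control replicate 1 or control replicate 3, and GC correction brought a call in AMI-1 against control (0.17). The AMI-5 value against control was -0.20 with that correction and was still called.

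MMP14 (ENSG00000157227.8) had 492.3, 315.2 and 384.0 CPM in AMI-1 replicates 1, 2 and 3, 365.0, 235.2 and 325.3 CPM in AMI-5 replicates 1, 2 and 3, and 469.1, 310.0 and 387.6 CPM in control replicates 1, 2 and 3. The groups overlapped, with replicate 1 high and replicate 2 low in all 3 of them, but each AMI-5 library was below its 2 partners. The log2 fold change was 0.03 ± 0.05 (-0.08 to 0.14) with AMI-1 and -0.34 ± 0.05 (-0.45 to -0.22) with AMI-5, and -0.36 ± 0.05 (-0.47 to -0.25) for AMI-5 against AMI-1. Both AMI-5 calls held in 9 of 9 fits without a library, and GC correction brought the value against control to -0.20. TIMP2, the partner of MMP14 in MMP2 activation, was not called.

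The 3 inhibitors were called in 0 of the 3 comparisons. TIMP1 (ENSG00000102265.7) had 175.9, 138.1 and 149.6 CPM in AMI-1 replicates 1, 2 and 3, 163.7, 110.3 and 141.8 CPM in AMI-5 replicates 1, 2 and 3, and 157.8, 116.3 and 155.7 CPM in control replicates 1, 2 and 3, and its groups overlapped. Its log2 fold change was 0.11 ± 0.06 (-0.02 to 0.25) with AMI-1, -0.05 ± 0.06 (-0.19 to 0.08) with AMI-5 and -0.17 ± 0.06 (-0.30 to -0.03) for AMI-5 against AMI-1. GC correction turned the AMI-5 value to 0.07 and brought a call with AMI-1 (0.14). For each count of TIMP1 there were 0.659, 0.497 and 0.920 counts of MMP1 in AMI-1 replicates 1, 2 and 3, 0.314, 0.389 and 0.357 in AMI-5 replicates 1, 2 and 3, and 0.318, 0.414 and 0.407 in control replicates 1, 2 and 3, a ratio that is not corrected for transcript length. The AMI-1 libraries were again the 3 highest in it.

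TIMP2 (ENSG00000035862.8) was the most abundant of the 10, with 836.4, 889.6 and 752.3 CPM in AMI-1 replicates 1, 2 and 3, 780.0, 822.9 and 776.1 CPM in AMI-5 replicates 1, 2 and 3, and 879.0, 863.8 and 813.1 CPM in control replicates 1, 2 and 3. Its log2 fold change was -0.05 ± 0.05 (-0.16 to 0.06) with AMI-1 and -0.10 ± 0.05 (-0.21 to 0.01) with AMI-5. TIMP3 (ENSG00000100234.10), which binds to the matrix and also inhibits ADAM-type sheddases, averaged 13.4 ± 1.59 CPM with AMI-1, 13.6 ± 0.634 CPM with AMI-5 and 13.9 ± 0.989 CPM in control (SD, n = 3), with overlap of all 3 groups. Its log2 fold change was -0.06 ± 0.10 (-0.26 to 0.15) with AMI-1 and -0.02 ± 0.10 (-0.23 to 0.18) with AMI-5. These intervals leave room for differences of either sign, and TIMP3, with 187 to 327 counts in a library, had the wider ones.

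Both plasminogen activator genes were called lower with AMI-5 and neither was called with AMI-1. PLAU (ENSG00000122861.9) had 145.5, 124.5 and 135.0 CPM in AMI-1 replicates 1, 2 and 3, 138.1, 114.9 and 126.4 CPM in AMI-5 replicates 1, 2 and 3, and 157.0, 130.9 and 148.3 CPM in control replicates 1, 2 and 3. In each replicate number the control library was the highest of the 3 and the AMI-5 library the lowest, while the groups overlapped. The log2 fold change was -0.11 ± 0.05 (-0.22 to 0.00, not called) with AMI-1 and -0.20 ± 0.05 (-0.31 to -0.09, called) with AMI-5, and -0.10 ± 0.05 for AMI-5 against AMI-1 (-0.21 to 0.02, not called). PLAT (ENSG00000104368.13) had 293.9, 223.4 and 279.1 CPM in AMI-1 replicates 1, 2 and 3, 250.4, 184.2 and 253.7 CPM in AMI-5 replicates 1, 2 and 3, and 290.8, 218.2 and 287.3 CPM in control replicates 1, 2 and 3. Its AMI-1 and control libraries matched closely within a number, at 0.002 ± 0.05 (-0.11 to 0.11), and its AMI-5 libraries were lower, at -0.21 ± 0.05 (-0.32 to -0.10) against control and -0.21 ± 0.05 (-0.32 to -0.11) against AMI-1. With GC correction the AMI-5 values against control were -0.13 for PLAU and -0.24 for PLAT, and both were called. The AMI-5 call against control ended in 5 of 9 fits without a library for PLAU (leaving out replicate 1 of AMI-1, replicate 1 or 2 of AMI-5, or replicate 1 or 3 of control) and in 4 of 9 for PLAT (leaving out replicate 1 or 2 of AMI-5, or replicate 1 or 3 of control). The call of PLAT against AMI-1 ended when replicate 1 or 2 of either compound, or control replicate 1, was left out.

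ANPEP (ENSG00000166825.9) was, without GC correction, the 1 gene of the 10 called in both comparisons with control, in opposite directions. It had 337.0, 234.2 and 265.3 CPM in AMI-1 replicates 1, 2 and 3, 196.3, 129.5 and 173.7 CPM in AMI-5 replicates 1, 2 and 3, and 273.2, 176.3 and 225.6 CPM in control replicates 1, 2 and 3. Within each replicate number the order was AMI-1, control, AMI-5 from high to low, and only the AMI-5 and AMI-1 groups did not overlap. The log2 fold change was 0.32 ± 0.06 (0.20 to 0.43) with AMI-1, with pairs of 0.30, 0.41 and 0.23. It was -0.43 ± 0.06 (-0.55 to -0.31) with AMI-5, with pairs of -0.48, -0.44 and -0.38, and -0.75 ± 0.06 (-0.87 to -0.63) for AMI-5 against AMI-1. The AMI-1 call ended without AMI-1 replicate 1 or without any 1 of the 3 control libraries, whereas both AMI-5 calls held in 9 of 9 such fits. With GC correction the values were 0.35 with AMI-1 and -0.31 with AMI-5, and both were called. With that correction WTAPP1 (0.97 with AMI-1 and -0.36 with AMI-5) and MMP2 (0.17 and -0.20) were also called in opposite directions.

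**Figure D3:**
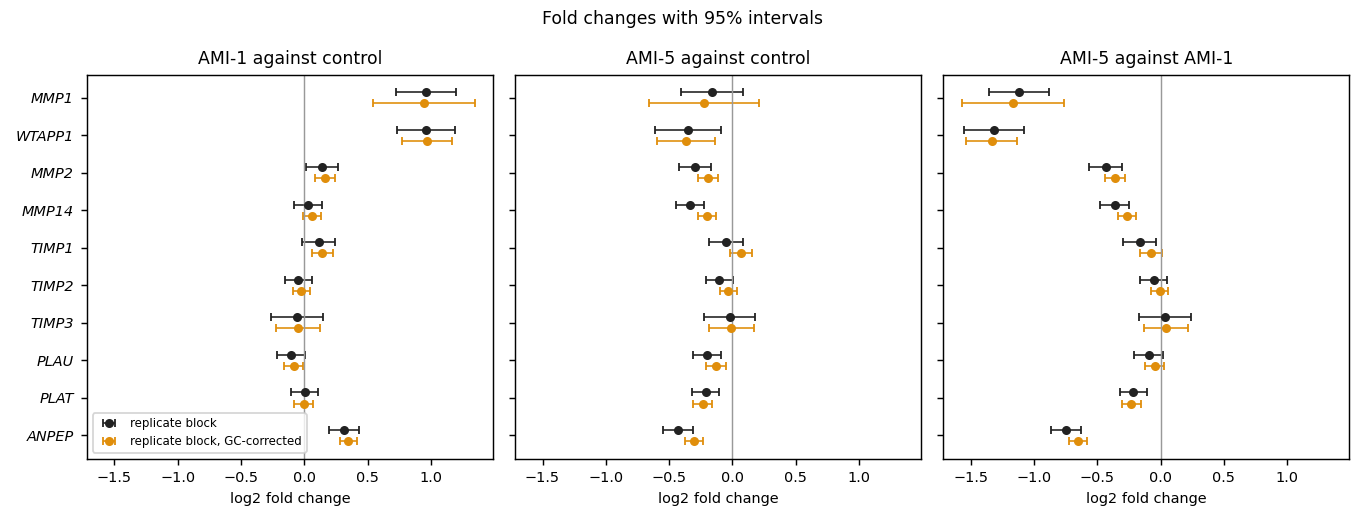
Each row is a transcript, points are log2 fold changes from the replicate-block fit without (black) and with (orange) GC correction, and bars are 95% intervals. MMP1 and WTAPP1 lie near 0.96 with AMI-1, and ANPEP lies above 0 with AMI-1 and below 0 with AMI-5.

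Groups whose 3 libraries did not overlap were seen for MMP1 and WTAPP1 in AMI-1 against control (where 1.94% of all genes were higher without overlap), for MMP2 in AMI-5 against control (3.36% of all genes were lower without overlap), and for MMP1, WTAPP1, MMP2 and ANPEP in AMI-5 against AMI-1 (3.28% lower without overlap). The members also differed in how much of their spread went with the treatment. Treatment took 79.3% of the sum of squares of log2 CPM between libraries for MMP2, 75.6% for MMP1, 75.5% for WTAPP1 and 61.4% for ANPEP. For PLAT, TIMP1 and MMP14 the replicate number took 77.2%, 80.1% and 69.4%, and treatment 21.6%, 11.2% and 29.1%. Of the 10 endothelial markers tested, 6 were called lower and 1 higher in AMI-5 against control, and 0 were called in AMI-1 against control. Of all genes tested, 10.9% were called in AMI-5 against control and 7.51% were called lower there, and 0.41% were called in AMI-1 against control. With GC correction 4 of the 10 were called lower with AMI-5 and 1 higher, where 13.6% of all genes were called. In the blocked fits without a library, the lower calls held in 2 of 9 for ERG, 3 for EGFL7 and 4 for TIE1. They held in 5 of 9 for CDH5 and ROBO4 and in 6 for ENG, and the higher call of ESAM held in 9. Of the 7 fibroblast and pericyte markers 1, COL1A1, was called lower with AMI-5 and 0 were called with AMI-1, where GC correction gave 1 lower. Their part in the AMI-5 values of the proteases was not tested.

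Levels of different genes can be set side by side only per length, here as CPM per kilobase of the longest GENCODE transcript. In control TIMP2 stood first at 233.3 ± 9.44 CPM per kilobase (SD, n = 3), followed by TIMP1 at 130.8 ± 21.4, MMP14 at 104.2 ± 21.3, PLAT at 76.7 ± 11.8, ANPEP at 61.2 ± 13.2, PLAU at 54.7 ± 5.00, MMP2 at 33.6 ± 2.94 and MMP1 at 27.4 ± 4.20. TIMP3, at 3.03 ± 0.21, and WTAPP1, at 2.99 ± 0.48 CPM per kilobase, came last. Neighbours in this order overlapped from TIMP1 down to PLAU, and so did MMP2 with MMP1 and TIMP3 with WTAPP1. With AMI-1, MMP1 was the sixth at 54.5 ± 17.9 CPM per kilobase, and its libraries overlapped with those of ANPEP above it (75.8 ± 14.3) and PLAU below it (50.8 ± 3.95). With AMI-5, MMP1 was the eighth at 24.5 ± 2.41 CPM per kilobase, with no overlap with MMP2 (27.3 ± 0.64), and ANPEP, at 45.3 ± 9.23, had come below PLAU, at 47.6 ± 4.38, with overlap.

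The genes most like MMP1 were ranked by Pearson's r over the 9 libraries, on log2 CPM minus the mean of its replicate number, among 12752 other genes with a mean of at least 5 CPM, members left out. Such values share libraries and treatments, so r is a description. The highest were NCKAP5 at 0.997, TIPARP at 0.995, APOLD1 at 0.993, STC1 at 0.988 and CYP1B1 at 0.983, where the median gene had 0.075 and the 99th percentile was 0.889. TIPARP encodes an ADP-ribosyltransferase and CYP1B1 a cytochrome P450, both known as targets of the aryl hydrocarbon receptor. APOLD1 encodes an endothelial early-response protein, and STC1 the secreted glycoprotein stanniocalcin. In AMI-1 against control their log2 fold changes were 0.47 ± 0.08 for NCKAP5, 0.86 ± 0.09 for TIPARP, 0.66 ± 0.10 for APOLD1, 0.46 ± 0.10 for STC1 and 2.90 ± 0.19 for CYP1B1, and in each the value of pair 2 was the smallest, as it was for MMP1. In AMI-5 against control they were -0.05 ± 0.08, -0.15 ± 0.09, -0.10 ± 0.11, -0.13 ± 0.10 and -0.35 ± 0.25 in the same order, and 0 of these 5 were called there. Among the members, r with MMP1 was 0.981 for WTAPP1, 0.794 for ANPEP, 0.701 for MMP2, 0.589 for TIMP1, 0.577 for MMP14, 0.516 for PLAT, 0.070 for PLAU, -0.045 for TIMP2 and -0.400 for TIMP3.

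**Figure D4:**
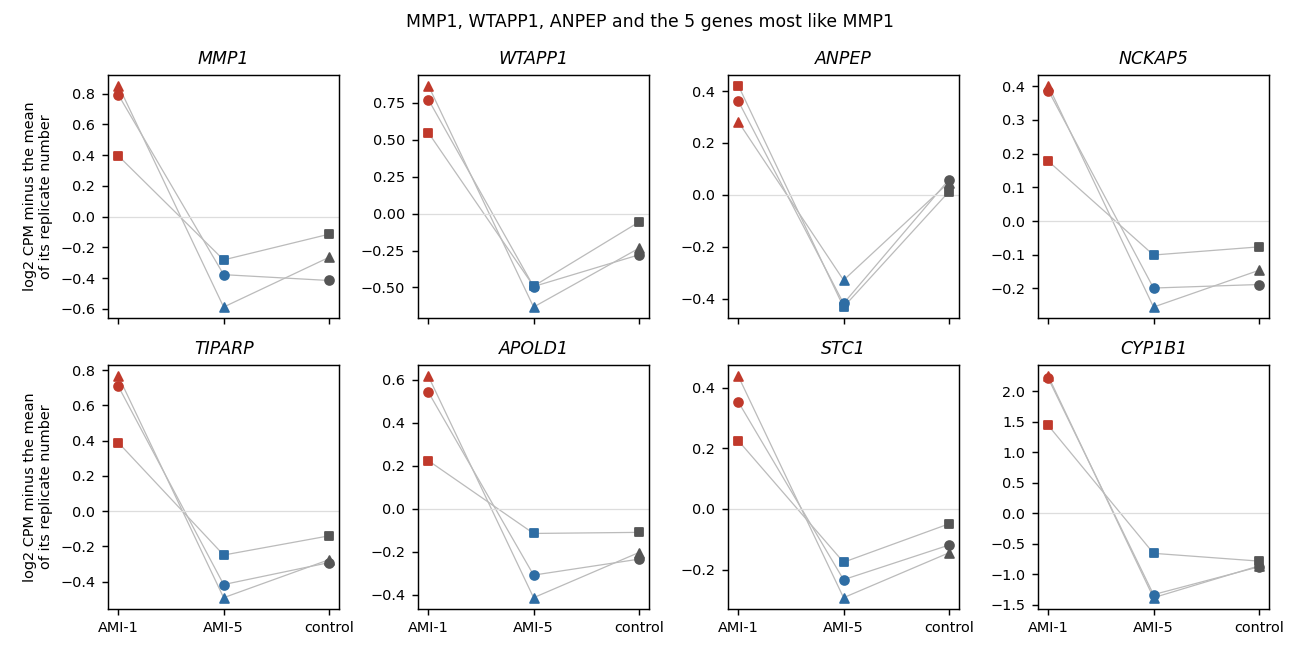
Each panel plots log2 CPM minus the mean of its replicate number (y axis, own scale in each panel) in the AMI-1, AMI-5 and control libraries, with circles for replicate 1, squares for replicate 2 and triangles for replicate 3. In MMP1, WTAPP1 and the 5 genes with the highest r the AMI-1 library of replicate 2 lies below those of replicates 1 and 3, and in ANPEP it is the highest.

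The other genes of the system were taken from lists of 93 genes, of which 67 were tested. In AMI-1 against control 0 of them rose and 1 fell, in AMI-5 against control 2 rose and 12 fell, and in AMI-5 against AMI-1 1 rose and 11 fell. Over all genes 0.41%, 10.9% and 5.1% were called in these comparisons. With GC correction 2 rose and 4 fell with AMI-1, 7 rose and 12 fell with AMI-5, and 3 rose and 13 fell in AMI-5 against AMI-1, where 3.4%, 13.6% and 11.8% of all genes were called. The median log2 fold changes of the 67 without GC correction were 0.01, -0.04 and -0.07. Of 20 further metalloproteinase genes 8 were tested, and 0 were called in each of the 3 comparisons. With GC correction 1 was called higher with AMI-1 (MMP19, 0.24) and 2 with AMI-5 (MMP25, 0.82, and MMP15, 0.27). The lowest adjusted p among them were those of MMP25 with AMI-5 (0.59 ± 0.27, edgeR adjusted p = 0.167) and of MMP19 with AMI-1 (0.22 ± 0.08, edgeR adjusted p = 0.294). MMP3, MMP8, MMP12, MMP13 and MMP27, which lie in the same metalloproteinase gene cluster as MMP1, were not among the genes tested. MMP10, of the same cluster, was tested and not called. Its level was low, at 0.77 ± 0.06 CPM with AMI-1, 0.77 ± 0.25 CPM with AMI-5 and 0.84 ± 0.21 CPM in control (SD, n = 3). The remaining inhibitors, TIMP4 and the membrane-anchored RECK, were not called, at -0.07 ± 0.26 (TIMP4) and -0.02 ± 0.07 (RECK) with AMI-1, and at -0.17 ± 0.26 (TIMP4) and -0.07 ± 0.07 (RECK) with AMI-5.

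In the plasminogen system 7 of 10 listed genes were tested. SERPINE2, the protease nexin gene, rose in AMI-5 against AMI-1 (0.22 ± 0.05, edgeR adjusted p = 0.0237). The urokinase receptor gene PLAUR had -0.08 ± 0.07 with AMI-1 and -0.18 ± 0.07 with AMI-5, and the clearance receptor gene LRP1 0.01 ± 0.07 and -0.22 ± 0.07. These last 2 genes were not called. The call of SERPINE2 ended without replicate 1 or 2 of either compound.

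Of 9 ADAM genes, which encode membrane sheddases and related proteins, 7 were tested and 2 fell with AMI-5. Of all genes tested, 10.9% were called in AMI-5 against control and 7.51% were called lower there. ADAM19 had 90.4 ± 11.2 CPM with AMI-5 and 113.9 ± 8.46 CPM in control (-0.34 ± 0.06, edgeR adjusted p = 0.00165), and ADAM15 changed by -0.29 ± 0.07 (edgeR adjusted p = 0.0147). Of 12 ADAMTS genes, which encode secreted matrix proteases, 9 were tested. ADAMTS6 fell with AMI-5 (-0.38 ± 0.08, edgeR adjusted p = 0.00593). ADAMTS15, an aggrecan-cleaving protease gene, had 0.41 ± 0.09 with AMI-1 (edgeR adjusted p = 0.0714) and -0.18 ± 0.10 with AMI-5, and it fell in AMI-5 against AMI-1 (-0.59 ± 0.09, edgeR adjusted p = 0.00112). Its pairs with AMI-1 were 0.54, 0.16 and 0.46, smallest in replicate 2. The call of ADAM19 held in 9 of 9 fits without a library, and that of ADAMTS6 ended without AMI-5 replicate 2. The call of ADAM15 ended without replicate 1 or 2 of AMI-5 or replicate 1 or 3 of control and with GC correction (-0.08), and that of ADAMTS15 against AMI-1 ended without replicate 1 of either compound and with GC correction (-0.51).

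Of 9 surface peptidase genes other than ANPEP 6 were tested. For this class and the 2 that follow, the shares of all genes called were 10.9% with AMI-5 (7.51% called lower) and 0.41% with AMI-1. The carboxypeptidase M gene, whose symbol is also CPM, rose with AMI-5 (0.44 ± 0.10, edgeR adjusted p = 0.0127), and the endothelin-converting enzyme gene ECE1 fell (-0.23 ± 0.05, edgeR adjusted p = 0.0129). FURIN, a convertase that cleaves the MMP14 zymogen, fell with AMI-5 as well (-0.34 ± 0.08, edgeR adjusted p = 0.0126), the only one called of 3 convertase genes tested. Of 3 fibrillar collagen genes COL1A1 fell with AMI-5, at 2678 ± 407 CPM against 3363 ± 731 CPM in control (-0.32 ± 0.07, edgeR adjusted p = 0.0125), and 0 were called with AMI-1. Neither DPP4, another surface peptidase gene, nor LNPEP was called in a comparison with control. The calls of ECE1, FURIN and COL1A1 ended without replicate 1 or 2 of AMI-5 or replicate 1 or 3 of control, and that of the carboxypeptidase M gene without replicate 1 or 2 of AMI-5 or any 1 control library. GC correction brought COL1A1 to -0.15, FURIN to -0.17 and ECE1 to -0.11, all still called.

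Genes known to regulate MMP1 were listed as 17, and 15 were tested: subunits of AP-1, ETS factors, cytokines and BSG, which encodes an inducer of metalloproteinases. With AMI-1 0 of them rose, against 1 with GC correction, where 0.41% and 3.4% of all genes were called in either direction. ETS2 fell, at 41.6 ± 2.90 CPM against 51.6 ± 3.65 CPM in control (-0.31 ± 0.06, edgeR adjusted p = 0.0348), and FOSL1, an AP-1 subunit gene, had 87.0 ± 16.8 CPM with AMI-1 and 89.4 ± 21.2 CPM in control (-0.03 ± 0.07, not called). With AMI-5 5 of the 15 fell and 1 rose, where 10.9% of all genes were called and 7.51% were called lower. Those that fell were FOSL1 (-0.37 ± 0.07, edgeR adjusted p = 0.00300), FOSL2 (-0.24 ± 0.06, edgeR adjusted p = 0.0115), ETV4 (-0.48 ± 0.11, edgeR adjusted p = 0.0134), BSG (-0.27 ± 0.07, edgeR adjusted p = 0.0214) and ETS2 (-0.21 ± 0.06, edgeR adjusted p = 0.0384). FOS rose with AMI-5 (1.04 ± 0.26, edgeR adjusted p = 0.0172) at low levels of 3.33, 6.84 and 1.99 CPM in AMI-5 replicates 1, 2 and 3, against 2.34, 1.39 and 1.68 CPM in control replicates 1, 2 and 3. Most of that difference lay in replicate 2, and the groups overlapped. IL8, the interleukin 8 gene, had 0.59 ± 0.19 with AMI-1 and was not called (edgeR adjusted p = 0.261). The call of ETS2 with AMI-1 held in 3 of 9 fits without a library and that with AMI-5 in 2 of 9. Without replicate 1 of AMI-5 the AMI-5 calls of FOSL1, FOSL2, ETV4, BSG and FOS ended. Without AMI-5 replicate 2 those of FOSL2, ETV4, BSG and FOS did, and without control replicate 3 those of FOSL1, FOSL2, ETV4 and BSG. Control replicate 1 was needed for FOSL2, ETV4 and BSG, and control replicate 2 for FOS. GC correction ended the call of BSG (-0.10).

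**Figure D5:**
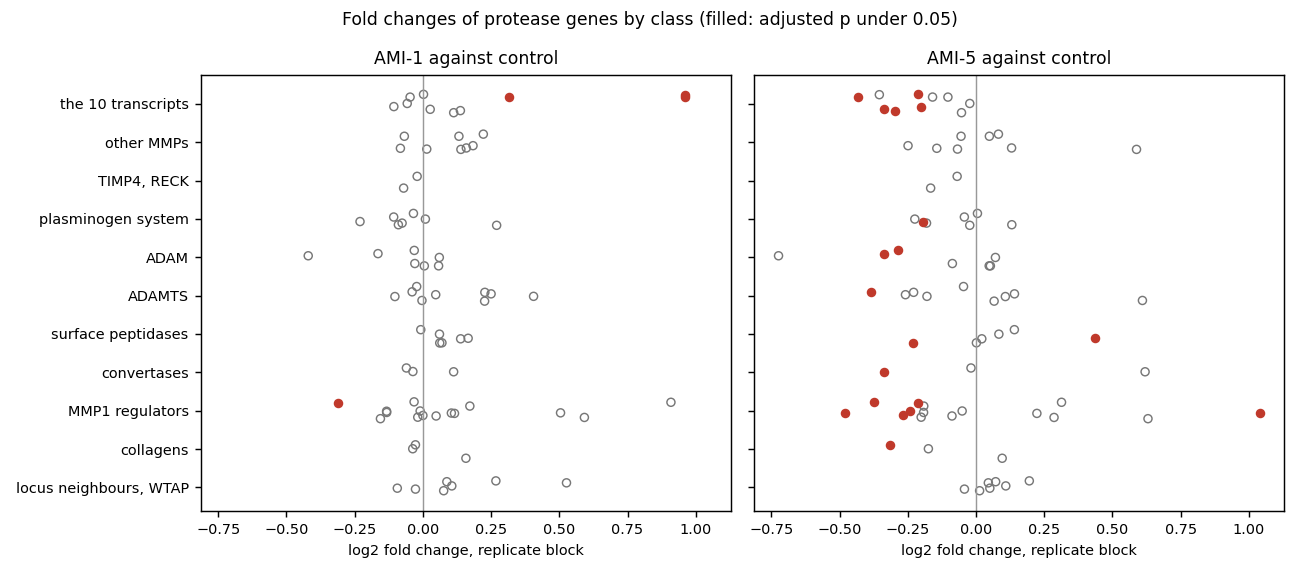
Each point is a gene of the class named at the left, placed by its log2 fold change in the replicate-block fit, and filled points have an adjusted p under 0.05. With AMI-1 the 10 members hold 3 filled points and the other classes 1, while with AMI-5 most filled points lie below 0.

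Promoter sequence is shown for ANPEP, MMP14 and PLAU, which were called lower in AMI-5 against control. They differed in AMI-1 against control, at 0.32 (ANPEP, called), 0.03 (MMP14, not called) and -0.11 (PLAU, not called). The sequence comes from the RefSeq table used here (GRCh38.p14, 250 bases before to 50 bases after an annotated start). MMP2, also called lower, had no window there. Windows on the chromosome of PLAT, called lower as well, were left out of the search for members. The rest of the table held 7 windows for 5 of the 10 members: ANPEP, MMP14, PLAU, TIMP1 and TIMP3. Sequences run 5′ to 3′ along the gene, and capitals mark matches to the motifs searched.
ANPEP, first window, chr15:89814803-89815102, minus strand: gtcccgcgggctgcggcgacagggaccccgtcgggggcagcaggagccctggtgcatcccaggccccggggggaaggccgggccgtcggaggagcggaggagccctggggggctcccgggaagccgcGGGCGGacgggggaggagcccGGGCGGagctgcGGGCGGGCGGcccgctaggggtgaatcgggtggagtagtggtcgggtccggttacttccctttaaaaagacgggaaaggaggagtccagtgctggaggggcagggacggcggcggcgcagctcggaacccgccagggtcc
ANPEP, second window, chr15:89806579-89806878, minus strand: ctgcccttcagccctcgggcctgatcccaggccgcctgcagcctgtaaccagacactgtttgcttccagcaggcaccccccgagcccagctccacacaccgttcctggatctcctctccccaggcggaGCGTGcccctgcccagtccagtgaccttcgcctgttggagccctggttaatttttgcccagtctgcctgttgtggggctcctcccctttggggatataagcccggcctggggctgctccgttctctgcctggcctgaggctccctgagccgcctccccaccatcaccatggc
MMP14, chr14:22836335-22836634, plus strand: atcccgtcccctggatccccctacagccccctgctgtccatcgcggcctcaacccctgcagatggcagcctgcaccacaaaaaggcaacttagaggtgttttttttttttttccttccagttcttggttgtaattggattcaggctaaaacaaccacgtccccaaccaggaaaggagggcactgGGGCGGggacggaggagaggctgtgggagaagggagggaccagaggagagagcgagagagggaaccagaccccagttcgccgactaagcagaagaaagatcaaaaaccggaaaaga
PLAU, first window, chr10:73910360-73910659, plus strand: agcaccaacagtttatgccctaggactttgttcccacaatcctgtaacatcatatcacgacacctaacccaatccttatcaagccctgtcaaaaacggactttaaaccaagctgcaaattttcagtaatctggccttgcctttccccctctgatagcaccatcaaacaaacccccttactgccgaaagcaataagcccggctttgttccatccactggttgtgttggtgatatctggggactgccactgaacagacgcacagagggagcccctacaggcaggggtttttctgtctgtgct
PLAU, second window, chr10:73910882-73911181, plus strand: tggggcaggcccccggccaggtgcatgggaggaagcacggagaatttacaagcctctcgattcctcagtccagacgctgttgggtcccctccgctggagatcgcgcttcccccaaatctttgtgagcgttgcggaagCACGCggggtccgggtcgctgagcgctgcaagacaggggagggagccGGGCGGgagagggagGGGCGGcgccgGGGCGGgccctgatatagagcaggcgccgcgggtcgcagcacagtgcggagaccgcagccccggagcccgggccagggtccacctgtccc

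The motifs searched, on both strands, were an AP-1 site (TGANTCA), a GC box (GGGCGG) and the core of the xenobiotic response element (GCGTG). Their letters occurred in 7.71%, 45% and 36.5% of the 35116 windows of the table. The AP-1 letters were in 0 of the 7 windows. GC boxes began at -123, -102, -90 and -86 in the first ANPEP window, the last pair overlapping, at -66 in MMP14 and at -66, -51 and -40 in the second PLAU window, with the start site as 0. The xenobiotic response core began at -122 in the second ANPEP window and at -113 in the second PLAU window. The first PLAU window held none of the 3 motifs. Among the 2 inhibitors with a window, neither of them called, TIMP3 held 5 GC boxes and TIMP1 2, with 1 xenobiotic response core in each. The GC content was 75% and 65.3% in the ANPEP windows, 55% in MMP14, and 48.7% and 70% in the PLAU windows, beside a median of 58.7% over all windows. A match describes the letters of the window and is no evidence of binding.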

How the data were processed

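Poly-A RNA of 9 HMEC-1 libraries was sequenced, 3 each with AMI-1, AMI-5 and DMSO. The authors deposited raw read counts per gene in 2 tables, AMI-1 with control and AMI-5 with control. The submitters' processing notes name BWA, bedtools and the build hg19. No version, annotation or strand setting is given in the sources used here. No gene of either table had a mean count below 10, and genes present in both were used. Counts were fitted with edgeR 4.0.16 in R 4.3.3 (TMM, filterByExpr by group, which removed 9 genes, robust quasi-likelihood F test, all 9 libraries in 1 fit, Benjamini-Hochberg adjustment over 18284 genes). The planned main fit had no block. The labels do not say what libraries of the same replicate number share. In deviations from the group means, same-number pairs correlated at 0.431 to 0.871 and different-number pairs at -0.804 to 0.204. The block was adopted after these values were seen. The coefficient of variation was 23.7% without the block and 5.64% with it, so values in the text come from the blocked fit. Standard errors and 95% intervals are those implied by the F test, CPM uses TMM-scaled library sizes, and log2 CPM a prior count of 2. GC correction used a lowess curve (span 0.3) per library over genes with a mean log2 CPM above 1. The curve was of log2 CPM minus the gene's mean over all libraries, on transcript GC content from GENCODE 29, known for 95.7% of genes. DESeq2 1.42.0 was an alternative.

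The scripts were tested on simulated data. The members and gene lists were chosen with earlier results of these data known. All 10 members are named. Of each wider list, up to 4 genes with the lowest adjusted p in either comparison with control are eligible. Others that are named (BSG, ETS2, IL8, MMP10, MMP15, WTAP and the genes not tested) were chosen after their values were seen. 1 gene that this rule makes eligible is not reported here. The 5 genes most like MMP1 are those with the highest r. Counts cover counting error and library spread only. Coordinates are RefSeq's, on another assembly than the counts.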

Additional observations from a re-analysis of the deposited data

Results flagged for a closer look

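SERPINB2, which encodes a serine protease inhibitor of the serpin family, was present in the AMI-1 table alone and so entered none of the fits of all 9 libraries. It was looked at again because its reads were above the control level in each AMI-1 library. It had 16, 18 and 28 counts in AMI-1 replicates 1, 2 and 3, 62 in all, against 7, 8 and 7 counts in control replicates 1, 2 and 3, 22 in all. That is 1.08 ± 0.06 CPM with AMI-1 and 0.410 ± 0.098 CPM in control (SD, n = 3 each). Genes with a mean count under 10 are missing from a table, which favours genes that are higher with that table's compound. Fitted on that table alone and without the block, AMI-1 against control had 0 genes called. The difference was not tested with the block.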

How the results depend on the processing

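Without the block edgeR called 0 genes and 0 members in each comparison, also with DESeq2 size factors, with no filter on low counts and with only the groups compared. Fitted without the block on its own table, each compound had 0 genes called against control. Counts are listed for AMI-1 and then AMI-5, each set against control, and last for AMI-5 against AMI-1. The replicate block gave 75, 2002 and 933 genes and 3, 5 and 6 members. With GC correction it gave 621, 2486 and 2161 genes and 4, 6 and 6 members, with DESeq2 size factors 71, 1957 and 911 genes and 3, 5 and 6 members, and with only the groups compared 69, 4372 and 820 genes and 3, 6 and 5 members. The DESeq2 Wald test gave 75, 1349 and 697 genes and 3, 5 and 6 members with the block, and 3, 20 and 36 genes and 0, 0 and 2 members (MMP1 and WTAPP1) without it. A pair of alternatives chosen after seeing the data left out robust estimation: 77, 1989 and 916 genes and 3, 5 and 6 members with the block, and 568, 2412 and 2030 genes and 4, 6 and 6 members with GC correction too, where MMP1 was called with AMI-1 (0.94). Leaving out 1 library gave 0 to 1, 0 to 0 and 0 to 2 genes and 0 members without the block. With the block it gave 14 (no AMI-1 replicate 1) to 354 (no AMI-1 replicate 2), 156 (no AMI-5 replicate 1) to 4283 (no AMI-1 replicate 3) and 192 (no AMI-5 replicate 1) to 3465 (no AMI-1 replicate 3) genes, and 2 to 3, 2 to 6 and 5 to 7 members.

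Signs turned only in values that the blocked fit without GC correction did not call. Among them was TIMP1 in AMI-1 against control, at 0.11 in that fit and called with GC correction (0.14). With GC correction PLAT had -0.0043 in AMI-1 against control and TIMP1 0.067 in AMI-5 against control, with or without robust estimation. The next ranges pool the fits that leave out 1 library with and without the block. In AMI-1 against control MMP14 ran from -0.15 to 0.19, PLAT from -0.12 to 0.11 and TIMP1 from -0.021 to 0.19. TIMP2 ran from -0.10 to 0.024 and TIMP3 from -0.15 to 0.027. In AMI-5 against control TIMP1 ran from -0.18 to 0.092 and TIMP3 from -0.097 to 0.077, and in AMI-5 against AMI-1 TIMP3 ran from -0.056 to 0.14. The blocked fits alone gave narrower ranges in AMI-1 against control. They were -0.00012 to 0.072 for MMP14, -0.021 to 0.037 for PLAT and 0.040 to 0.18 for TIMP1. For TIMP2 and TIMP3 they were -0.084 to -0.0022 and -0.14 to 0.014. With AMI-5 against control, TIMP1 had -0.097 to 0.015 in the blocked fits. The causes were not tested.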
